A study of Mus musculus with 10 samples.

Results

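The genes examined here are 7 transcription regulators: Tcf7 and Lef1, which encode TCF-1 and LEF1; Tox, Tox2 and Tox4; Sox4; and Ctnnb1, which encodes beta-catenin. They were chosen by name, with earlier results of these data known, and all 7 of these rows were found among the 55809 gene rows of the count files. Of the 10 libraries, 6 came from R26-TIR1(F74G) mice (replicates 5 to 10) and 4 came from R26-WT mice (replicates 1 to 4), all of them bulk RNA-seq of Treg cells from spleen and lymph nodes. Mice of both groups carried the Foxp3-AID allele, in which an auxin-inducible degron is fused to Foxp3, and both received 5-ph-IAA for 14 days. Per the file headers the mice were male, and the labels do not give an age. The ROSA26 allele of the R26-TIR1(F74G) mice places TIR1(F74G), the plant-derived subunit that binds 5-ph-IAA and recruits the degron to a ubiquitin ligase, behind a stop cassette that the Cre of the Foxp3 allele removes, so TIR1 is made in cells that express or have expressed Foxp3. R26-WT mice have no TIR1, and the comparison asks which transcripts differ after prolonged loss of Foxp3 protein. The study's general sort used an added mCherry gate for cells with TIR1. Whether that gate was used for these libraries is not stated, and a gate and the genotype cannot be told apart.

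TCF-1, LEF1, the TOX proteins and SOX4 share one kind of DNA-binding domain, the HMG box, which bends DNA in its minor groove. TCF-1 and LEF1 recruit either Groucho/TLE corepressors or beta-catenin, the coactivator that is stabilized when Wnt ligands block its destruction complex. In T cells TCF-1 and LEF1 are known for their part in thymic commitment and in the maintenance of resting and self-renewing cells, TOX for CD4 lineage development and for chronically stimulated cells, and TOX2 for follicular helper T cells. SOX4 is a TGF-beta-responsive factor in T cells.

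The HMG boxes are shown first because 2 pairs of these genes are close relatives, and a read from one could in principle be assigned to the other. The best-matching stretch of coding sequence between Tcf7 and Lef1 lay in exon 8 of both canonical transcripts (GENCODE M39, GRCm39), at chr11:52147783-52147889 on the minus strand for Tcf7 and at chr3:130988323-130988429 on the plus strand for Lef1. It is part of the HMG box. Capitals mark the 19 of 107 bases that differ (82.2% identity).
Tcf7: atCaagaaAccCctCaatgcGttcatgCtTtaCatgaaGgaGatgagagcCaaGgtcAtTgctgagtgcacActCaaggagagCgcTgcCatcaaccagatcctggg
Lef1: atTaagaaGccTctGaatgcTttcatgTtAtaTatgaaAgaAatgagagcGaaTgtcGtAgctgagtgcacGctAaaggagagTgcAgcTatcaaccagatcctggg

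The best stretch between Tox and Tox2 lay in exon 5 of both, at chr4:6722183-6722332 on the minus strand and chr2:163157748-163157897 on the plus strand. Only part of it lies in the HMG box. Capitals mark the 30 of 150 bases that differ (80.0% identity).
Tox: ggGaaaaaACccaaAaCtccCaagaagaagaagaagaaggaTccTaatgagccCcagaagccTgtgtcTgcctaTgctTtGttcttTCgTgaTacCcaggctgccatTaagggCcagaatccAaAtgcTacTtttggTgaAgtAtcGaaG
Tox2: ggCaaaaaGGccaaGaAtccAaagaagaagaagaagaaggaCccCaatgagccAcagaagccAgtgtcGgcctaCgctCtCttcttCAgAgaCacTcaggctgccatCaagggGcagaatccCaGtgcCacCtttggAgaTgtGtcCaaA

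The differences are spread along both stretches. The longest run of identical bases shared by any Tcf7 and any Lef1 transcript was 36 bases, and by Tox and Tox2 transcripts 20 bases. No 50-base word of a transcript of one of the 7 genes occurred in a transcript of another, on either strand. Against all other annotated genes, none of the 50-base words of Tox2 was shared, 3.88% of those of Tcf7, 3.99% of Tox, 8.69% of Ctnnb1, 15.6% of Lef1, 16.1% of Sox4 and 37.4% of Tox4. The counts were taken without strand, and a read pair that touches exons of more than 1 gene is left out. Exon bases that overlap another gene made up 0% of Tcf7, Tox2 and Sox4, 3.42% of Tox, 13.7% of Lef1 (its antisense gene Lef1os1), 15.1% of Ctnnb1 (mostly Ulk4) and 16.2% of Tox4 (Mettl3 and Rab2b), so levels of the last 3 are lower estimates.

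Libraries held 24158699 to 54795718 counted read pairs. Of all gene rows, 16363 with a mean count of at least 10 were tested, all 7 genes among them. DESeq2 (Wald test, Benjamini-Hochberg adjusted p under 0.05 over all tested genes) called 284 genes, 1.74% of those tested, of which 229 were higher in R26-TIR1(F74G), 1.40% of those tested. The edgeR quasi-likelihood test called 61, or 0.373%. Of the Treg identity genes (Foxp3, Il2ra, Ctla4, Ikzf2, Cd4, Cd3e and Trac) all 7 were tested and none was called by DESeq2, with 1 of them, Ctla4, at an unadjusted p under 0.05 (0.0204), and none by edgeR. Foxp3 transcript, which the degron does not target, ranged from 6816 to 11779 normalized counts in R26-WT and from 6778 to 16059 in R26-TIR1(F74G) (a log2 difference of 0.07, SE 0.25, adjusted p in DESeq2 0.99996). Summed normalized counts of 5 myeloid markers were 20.7 to 37.4 in R26-WT and 10.8 to 44.4 in R26-TIR1(F74G), with Itgax and Cd14 at 0 in every library. The summed counts of 6 immature thymocyte markers were 3884 to 4970 and 3674 to 4852, mostly Cd1d1, with Dntt and Arpp21 also detected in every library. Rag1, needed for receptor rearrangement in immature thymocytes, had at most 0.814 normalized counts, and Ptcra was at 0 in every library. The summed B cell markers were 832 to 1362 and 706 to 1183, almost all of it Cd79b and Cd79a, and the summed CD8 and NK markers 1203 to 1843 and 1093 to 1388, mostly Cd8b1. No tested marker of these thymocyte, B cell, CD8 and NK or myeloid lists was called by DESeq2 or edgeR, and none had an unadjusted DESeq2 p under 0.05.

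Levels of different genes were compared as RPKM, read pairs scaled to exon length and to the total of counted pairs. All 10 libraries gave one order, Tcf7 first, then Lef1, Ctnnb1, Tox4, Tox, Sox4 and Tox2. Tcf7 was among the most abundant transcripts of these cells, at percentile 99.6 of the tested genes, with a level per length of 438 ± 52.2 RPKM across the R26-WT libraries (n = 4, SD here and below) and 595 ± 52.5 across the R26-TIR1(F74G) libraries (n = 6). Lef1 had 69.3 ± 3.90 and 76.5 ± 4.44 RPKM (percentile 95.2). The next level was that of Ctnnb1, with 30.3 ± 8.26 and 32.0 ± 3.21 RPKM, followed by Tox4 with 20.2 ± 3.33 and 23.6 ± 2.90. Ranges of these neighbors overlapped, from 22.6 to 38.6 RPKM for Ctnnb1 and from 17.0 to 23.7 for Tox4 in R26-WT, although Ctnnb1 was higher within each library. Tox had 15.1 ± 0.542 and 14.4 ± 0.651 RPKM and did not overlap Tox4 in either group. Sox4 had 7.19 ± 0.425 and 7.11 ± 1.23 RPKM. Tox2 was the least abundant, at 0.779 ± 0.420 and 2.15 ± 1.18 RPKM (percentile 35.0).

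**Figure D1:**
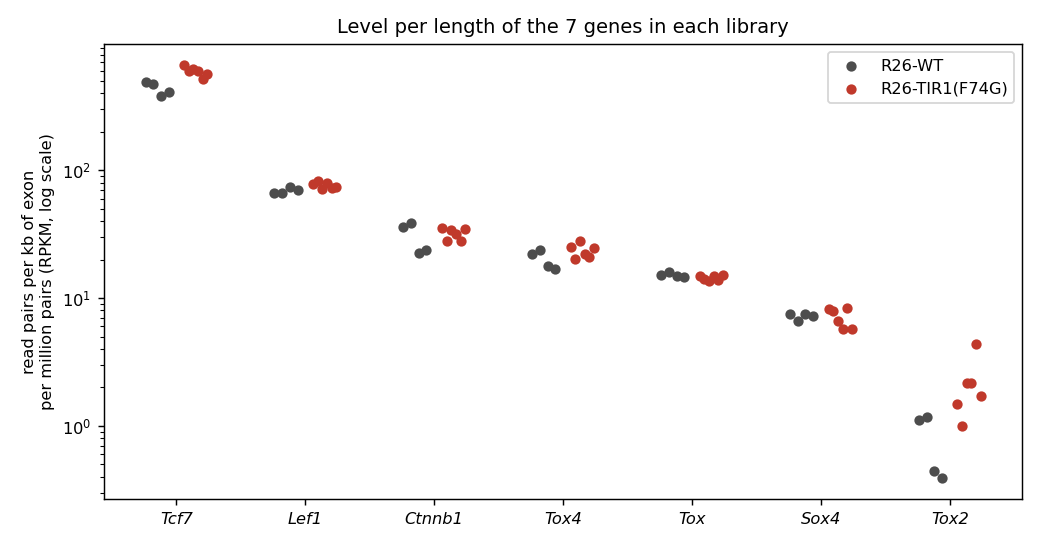
Level per length (RPKM, log scale) of the 7 genes, 1 point for each of the 4 R26-WT and 6 R26-TIR1(F74G) libraries. The order of the genes was the same in all 10 libraries, from Tcf7 (381 to 671 RPKM) down to Tox2 (0.389 to 4.39 RPKM).

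Of the 7 genes, 2 (Tcf7 and Tox2) were called by DESeq2, both higher in R26-TIR1(F74G) (28.6% of the 7 genes, against 1.74% of all tested genes), and edgeR called none of the 7. The genes were chosen with earlier results of these data known, so the shares are a description and not a test of enrichment. At an unadjusted p under 0.05, DESeq2 and edgeR each had these same genes, Tcf7 (edgeR p 0.00107) and Tox2 (edgeR p 0.00586), and no other. The median log2 fold change over the 7 genes was 0.13, against 0.00063 over all tested genes. Tcf7 was the only one whose normalized counts did not overlap between the groups, a separation that 2.37% of the tested genes had in either direction.

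Tcf7 (chr11:52143198-52174158, minus strand, GRCm39) had normalized counts of 64378, 63498, 50154 and 53469 in R26-WT replicates 1 to 4. In R26-TIR1(F74G) replicates 5 to 10 it had 87319, 79522, 82962, 76522, 66938 and 73019. Every R26-TIR1(F74G) library lay above every R26-WT library, with the smallest gap between R26-TIR1(F74G) replicate 9 and R26-WT replicate 1. The R26-WT libraries themselves fell into a higher pair (replicates 1 and 2) and a lower pair (replicates 3 and 4). The means were 57875 ± 7140 (n = 4) and 77714 ± 7248 (n = 6). The difference was 0.43 on the log2 scale (SE 0.12), or 1.34-fold, with an adjusted p of 0.0257 from DESeq2 and 0.121 from edgeR. In a bulk library, more cells with the transcript and more transcript per cell cannot be told apart. The DESeq2 call was lost without R26-WT replicate 3 (adjusted p 0.186) or 4 (0.216), and without R26-TIR1(F74G) replicate 5 (0.105), 6 (0.0795), 7 (0.0656), 8 (0.0740) or 10 (0.0517). The log2 fold change stayed between 0.36 and 0.48 in the 10 fits without 1 library.

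Lef1 (chr3:130904120-131018005, plus strand), the other TCF/LEF gene expressed at a high level, had 25305, 25771, 28449 and 26938 normalized counts in R26-WT. In R26-TIR1(F74G) it had 29662, 32022, 27545, 29703, 27590 and 27824. Of the 6 R26-TIR1(F74G) libraries 3 lay above all R26-WT libraries and the groups overlapped. The log2 fold change was 0.13 (SE 0.08, 95% interval −0.04 to 0.29, adjusted p 0.99996 from DESeq2 and 0.999 from edgeR). Within a library, the ratio of Tcf7 to Lef1 per length does not depend on scaling between libraries, though it can move with a trend on exon length, since the exons of Tcf7 sum to 3019 bases and those of Lef1 to 8788. It was 7.41, 7.17, 5.13 and 5.78 in R26-WT and 8.57, 7.23, 8.77, 7.50, 7.06 and 7.64 in R26-TIR1(F74G). The log2 ratio was higher by 0.30 in R26-TIR1(F74G), with means of 2.96 and 2.66 (exact two-sided permutation test over 210 splits, p = 0.0286, also 0.0286 when adjusted over both ratios tested, where the smallest possible p is 0.00476). The groups overlapped in this ratio, since R26-TIR1(F74G) replicates 6 and 9 lay below R26-WT replicate 1. The p rose above 0.05 without R26-WT replicate 3 (0.119) or 4 (0.0952), and without R26-TIR1(F74G) replicate 5, 7 or 8 (0.0556 each) or 10 (0.0635), all by exact permutation. With each library's length trend, described with the slopes, removed from the ratio, an alternative chosen after the data were seen, the difference was 0.37 and the call was lost (exact permutation p = 0.233).

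Tox2 (chr2:163045045-163166090, plus strand) was at a low level and changed by the largest factor of the 7 genes. Its normalized counts were 164, 177, 65.9 and 57.5 in R26-WT (68 to 206 raw read pairs). In R26-TIR1(F74G) they were 219, 150, 323, 313, 640 and 250 (146 to 592 raw read pairs). Of the 6 R26-TIR1(F74G) libraries 5 were above all R26-WT libraries, replicate 6 was not, and replicate 9 had by far the highest value. The means were 116 ± 63.2 (n = 4) and 316 ± 171 (n = 6), which differ by 1.44 on the log2 scale (SE 0.40), or 2.72-fold, with an adjusted p of 0.0236 from DESeq2 and 0.289 from edgeR. Without R26-TIR1(F74G) replicate 9 the log2 fold change was 1.12 (adjusted p in DESeq2 0.0858), and the call was also lost without R26-WT replicate 3 or 4 (0.175 each) or R26-TIR1(F74G) replicate 8 (0.0571).

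Tox (chr4:6686353-6991557, minus strand), the relative of Tox2 with the higher level, had 5007, 5340, 4943 and 4831 normalized counts in R26-WT and 4885, 4684, 4560, 4853, 4520 and 4938 in R26-TIR1(F74G). The groups overlapped within a narrow range, and no R26-TIR1(F74G) library lay above the R26-WT median of 4975. The log2 fold change was −0.09 (SE 0.07, 95% interval −0.23 to 0.06, adjusted p in DESeq2 0.99996, edgeR 0.999). The ratio of Tox to Tox2 per length was 13.6, 13.5, 33.5 and 37.6 in R26-WT and 9.98, 14.0, 6.31, 6.93, 3.16 and 8.83 in R26-TIR1(F74G). Apart from R26-TIR1(F74G) replicate 6, every R26-TIR1(F74G) library had a lower ratio than any R26-WT library. The log2 ratio fell by 1.56 in R26-TIR1(F74G), with means of 4.46 in R26-WT and 2.90 in R26-TIR1(F74G) (exact two-sided permutation test, p = 0.019, adjusted over both ratios 0.0286). Since Tox differed little, the ratio mostly restates the Tox2 difference in the same libraries and is not separate evidence for it. With 1 library left out at a time the p stayed between 0.00794 and 0.0476, and with the length trend removed from the ratio the difference was −1.61 (exact permutation p = 0.0286).

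The other 3 genes did not pass the test and overlapped between the groups. Tox4 (chr14:52516603-52533858, plus strand), a broadly expressed TOX family member, ranged from 5123 to 7293 normalized counts in R26-WT and from 6192 to 8516 in R26-TIR1(F74G), and the log2 difference was 0.20 (SE 0.15, adjusted p in DESeq2 0.99996). Ctnnb1 (chr9:120758282-120789573, plus strand) ranged from 5121 to 8865 and from 6262 to 7924, and the log2 difference was 0.06 (SE 0.18, 95% interval −0.29 to 0.41, adjusted p in DESeq2 0.99996). All R26-TIR1(F74G) libraries of Ctnnb1 lay inside the R26-WT range. Sox4 (chr13:29132902-29137696, minus strand) ranged from 1394 to 1569 and from 1176 to 1730, and the log2 difference was −0.03 (SE 0.15, 95% interval −0.32 to 0.26, adjusted p in DESeq2 0.99996). Its R26-TIR1(F74G) libraries lay on both sides of the R26-WT range, 3 above and 3 below its highest and lowest value: replicates 5, 6 and 9 had 1709, 1661 and 1730, and replicates 7, 8 and 10 had 1392, 1176 and 1183.

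**Figure D2:**
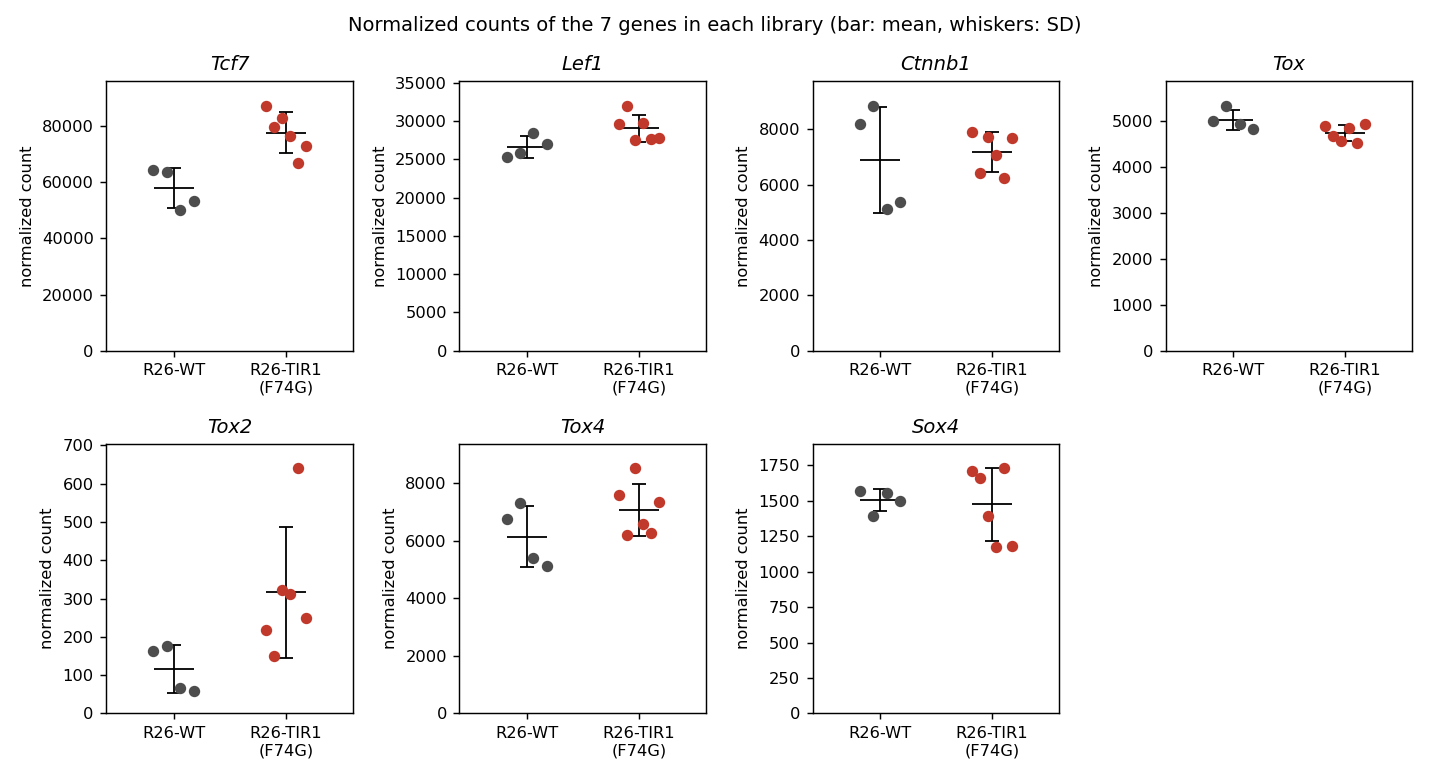
Normalized counts of the 7 genes, 1 point for each library, for R26-WT (n = 4) and R26-TIR1(F74G) (n = 6), with the mean (bar) and SD (whiskers). Tcf7 separates the groups completely, Tox2 in 5 of 6 R26-TIR1(F74G) libraries, and the other genes overlap.

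**Figure D3:**
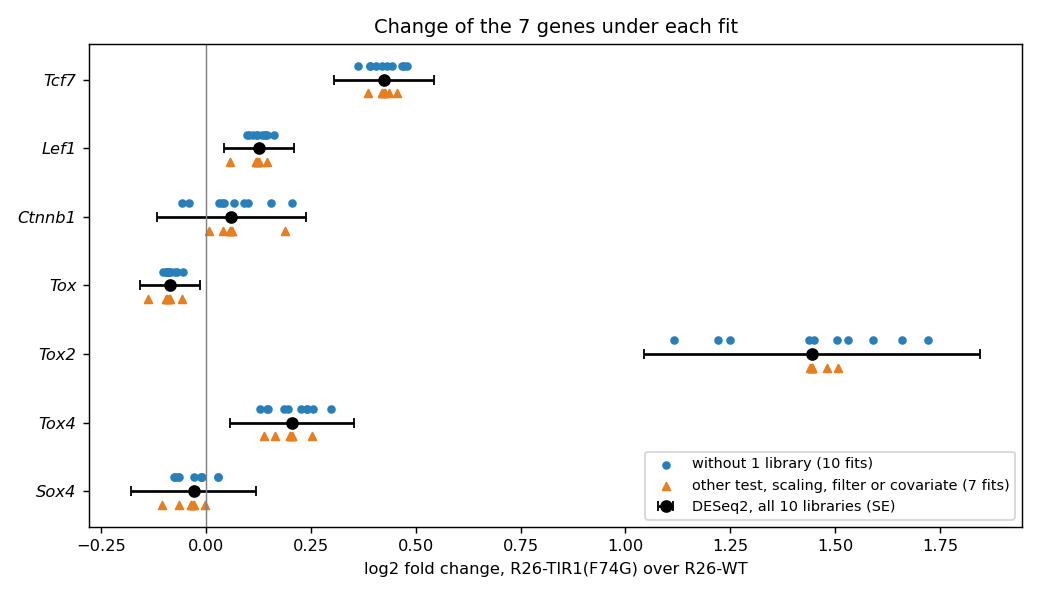
Log2 fold change of R26-TIR1(F74G) over R26-WT for the 7 genes: DESeq2 on all 10 libraries with its SE (black), the 10 fits without 1 library (blue) and the 7 fits with another test, scaling, filter or covariate (orange). In these fits Tcf7 stays between 0.36 and 0.48, Tox2 between 1.12 and 1.72, and Ctnnb1 and Sox4 lie on both sides of 0. The fit with R26-WT replicates 3 and 4 both left out is not drawn and gave 0.29 for Tcf7 and 0.89 for Tox2.

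Counts of Tcf7, Tox2, Tox4 and Ctnnb1 were lowest in libraries that also stood apart in a trend on exon length. Each library's deviation from the mean over all libraries has a slope on log2 exon length, and this slope was 0.054 and 0.112 in R26-WT replicates 1 and 2, −0.138 and −0.107 in R26-WT replicates 3 and 4, and −0.087 to 0.169 in R26-TIR1(F74G). R26-WT replicates 3 and 4 had the lowest slopes of the 10 libraries and, in both groups together, the lowest counts of Tcf7, Tox4 and Ctnnb1, and of Tox2. R26-TIR1(F74G) replicate 7, with the highest slope, had the highest Tox4 count. With the group means removed, the correlation of the counts with the slope over the 10 libraries was r = 0.786 for Tcf7, 0.448 for Tox2, 0.953 for Tox4, 0.879 for Ctnnb1, 0.413 for Tox, −0.356 for Sox4 and −0.583 for Lef1, a description only, since the slope is computed from the same libraries. With the length trend removed from each library, the log2 fold change was 0.44 for Tcf7 (adjusted p in DESeq2 0.0366) and 1.44 for Tox2 (0.0271). With R26-WT replicates 3 and 4 both left out, an alternative chosen after the data were seen, it was 0.29 for Tcf7 (adjusted p in DESeq2 0.659) and 0.89 for Tox2 (0.683), with 2 R26-WT libraries left, and DESeq2 called 134 genes in all. The difference between the groups in the log2 ratio of Tox to Tox2 was then −0.87 (exact permutation p = 0.214) and in that of Tcf7 to Lef1 0.09 (0.393), where the smallest possible p is 0.0357.

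**Figure D4:**
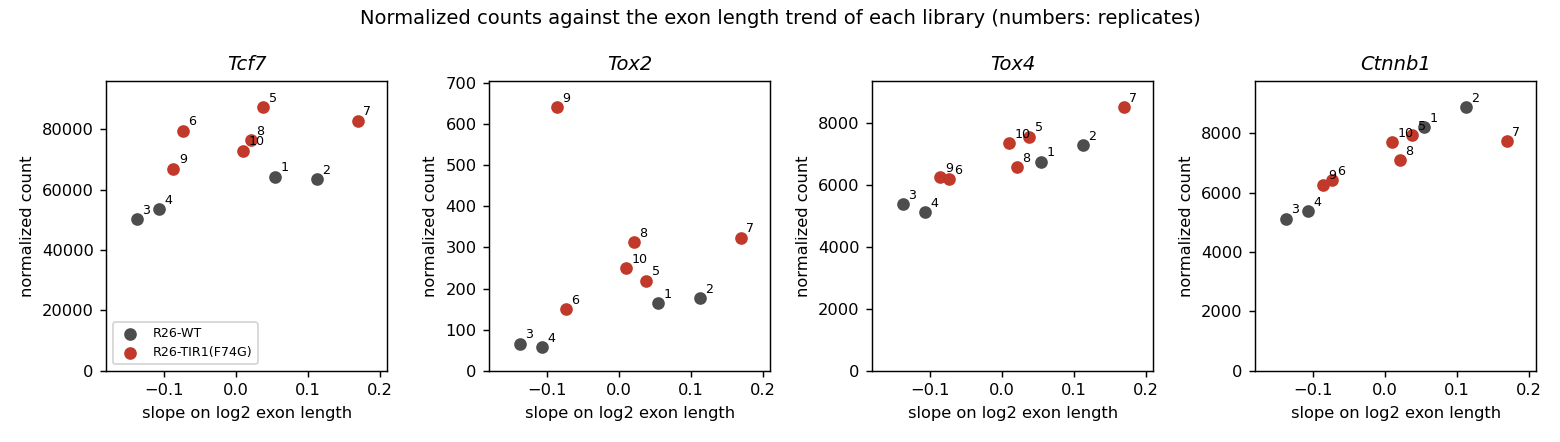
Normalized counts of Tcf7, Tox2, Tox4 and Ctnnb1 (vertical axes) against each library's slope on log2 exon length (horizontal axes), with replicate numbers. R26-WT replicates 3 and 4 lie at the left end with the lowest counts of all 4 genes, and no R26-TIR1(F74G) library has a slope as low as theirs.

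Other relatives of these genes were weakly expressed or did not pass the test. Of 10 such genes, TCF/LEF, TOX and SOX paralogs and Jup, which encodes the beta-catenin relative plakoglobin, 4 were tested and none was called by DESeq2 or edgeR, with 1 at an unadjusted DESeq2 p under 0.05. That gene was Tcf7l1, which encodes TCF-3, at 330 ± 44.5 normalized counts in R26-WT and 227 ± 74.2 in R26-TIR1(F74G) (a log2 difference of −0.55, SE 0.26, adjusted p in DESeq2 0.609). Tcf7l2, which encodes TCF-4, had 75.1 ± 17.5 and 52.2 ± 24.5 (−0.51, SE 0.33), and Jup had 57.5 ± 34.6 and 86.4 ± 29.1 (0.60, SE 0.36). Jup was called without R26-WT replicate 2 (1.11, adjusted p in DESeq2 0.0278). Of 15 genes for other HMG-box proteins, all tested, none was called by DESeq2 or edgeR and 1 had an unadjusted DESeq2 p under 0.05. This was Hmgb2, which encodes a chromatin protein abundant in dividing cells, with 914 ± 137 and 1215 ± 208 normalized counts (a log2 difference of 0.41, SE 0.16, adjusted p in DESeq2 0.289), and it was called with the length trend removed (0.43, adjusted p in DESeq2 0.0459). Hmg20b (1353 ± 69.2 and 1470 ± 62.7) and Ssrp1, a subunit of the histone chaperone FACT (11988 ± 1132 and 13039 ± 1184), followed.

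The Wnt and beta-catenin pathway was examined in 4 lists, and no gene in them was called by DESeq2 or edgeR on all 10 libraries. Of 22 Wnt ligands, receptors and transducers only 10 could be tested, since the other 12 were below the count minimum, among them Wnt3a, Fzd1, Fzd2 and Fzd8 with no read in any library. No gene of this list had an unadjusted p under 0.05, and the median log2 fold change was 0.04. The smallest p belonged to Ryk, a Wnt coreceptor (57.6 ± 22.6 and 95.3 ± 57.3 normalized counts), Wls, the carrier that Wnt secretion needs (3661 ± 465 and 3356 ± 417), and the ligand Wnt10a (74.3 ± 36.2 and 61.3 ± 33.1). All 15 genes of the beta-catenin destruction complex were tested, with a median of 0.0074, and 1 had an unadjusted p under 0.05: Csnk1e, a kinase of the casein kinase family, at 1194 ± 89.8 and 1022 ± 58.2 normalized counts (a log2 difference of −0.23, SE 0.10, adjusted p in DESeq2 0.415). Amer1 (1907 ± 590 and 1611 ± 224) and the scaffold gene Axin2 (211 ± 60.3 and 249 ± 60.3) followed. Of 18 nuclear cofactors 17 were tested, with a median of 0.0065 and 1 unadjusted p under 0.05. It was that of Ctbp2, a corepressor gene with few reads, at 56.6 ± 12.9 and 31.4 ± 8.88 normalized counts (a log2 difference of −0.84, SE 0.28, adjusted p in DESeq2 0.108), and it was called without R26-TIR1(F74G) replicate 5 (adjusted p in DESeq2 0.0280). Hdac1 (6249 ± 428 and 5858 ± 538) and Bcl9l (1964 ± 317 and 1757 ± 398) had larger p-values. Of 10 widely used TCF/LEF target genes 5 were tested, all 5 with a log2 fold change above 0 and none with an unadjusted p under 0.05, and their median was 0.20. The largest differences by p were in Cd44, an adhesion receptor (2316 ± 451 and 2663 ± 277), Axin2, and Rnf43, a feedback inhibitor of Wnt receptors (1274 ± 497 and 1531 ± 422). Myc, the most abundant of them, had 20608 ± 1246 and 21287 ± 1883 normalized counts. Not all 5 target genes stayed above 0 with R26-WT replicates 3 and 4 both left out. Axin2 was then at −0.05 and Cd44 at 0.01 on the log2 scale.

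Of 17 genes that accompany TCF-1 in resting T cells, all tested, DESeq2 called 1 higher and none lower, edgeR called none, and 12 had a log2 fold change below 0 (median −0.05). The called gene was Slamf6, a receptor of TCF-1-expressing T cells, with 16173 ± 309 normalized counts in R26-WT and 21776 ± 2425 in R26-TIR1(F74G) (a log2 difference of 0.43, SE 0.10, adjusted p in DESeq2 0.00411, edgeR 0.103). Its R26-WT libraries lay between 15724 and 16431 and its R26-TIR1(F74G) libraries between 19863 and 26348, without overlap. The call of Slamf6 was lost with the length trend removed (log2 difference 0.38, adjusted p in DESeq2 0.538) and with R26-WT replicates 3 and 4 both left out (0.45, adjusted p in DESeq2 0.139). Cxcr5, the follicular homing receptor, had 846 ± 157 and 571 ± 100 (−0.57, SE 0.18, adjusted p in DESeq2 0.0801) and was called lower without R26-WT replicate 4 (0.0132), without R26-TIR1(F74G) replicate 9 (0.0418) and with the length trend removed (0.0485). Foxo1, a factor that keeps T cells quiescent, had 21956 ± 922 and 18201 ± 1491 (−0.27, SE 0.09, adjusted p in DESeq2 0.145) with no overlap between groups. Id3, an inhibitor of E proteins, had 13511 ± 4567 and 8767.5 ± 1602 (−0.62, SE 0.23, adjusted p in DESeq2 0.212) and was called lower with the length trend removed (0.0349) and without R26-WT replicate 2 (0.00282). The homing gene Ccr7 (57383 ± 7624 and 56252 ± 4193) differed by less than its spread. Id3, Ccr7 and Myc were named after their values were seen.

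Of 15 genes that accompany TOX in activated or chronically stimulated T cells, all tested, DESeq2 called 3 higher and none lower, edgeR called 2, and the median log2 fold change was 0.26. Tox itself did not pass the test. Eomes, a T-box factor, rose from a normalized count of 109 ± 29.8 to 302 ± 63.1 (a log2 difference of 1.47, SE 0.23, adjusted p in DESeq2 4.54e-08, edgeR 0.0161). Id2, an inhibitor of E proteins, rose from 2833 ± 221 to 5368 ± 1320 (0.92, SE 0.17, adjusted p in DESeq2 3.71e-05, edgeR 0.0390). For both genes every R26-TIR1(F74G) library was above every R26-WT library. Tigit, an inhibitory receptor, had 42.8 ± 24.2 and 141 ± 99.5 (1.73, SE 0.45, adjusted p in DESeq2 0.0102, edgeR 0.245), with 5 of 6 R26-TIR1(F74G) libraries above all R26-WT libraries. Its call was lost without R26-WT replicate 1 (adjusted p in DESeq2 0.0594), 3 (0.0828) or 4 (0.0984) and without the last pair together (0.532), and in the fit with 1 surrogate variable (0.0551), whereas Eomes (1.21, adjusted p in DESeq2 0.000328) and Id2 (0.98, adjusted p in DESeq2 0.00448) were called without that pair. Havcr2, an inhibitory receptor gene with few reads, had 8.76, 0, 0 and 0 normalized counts in R26-WT and 2.05 to 60.6 in R26-TIR1(F74G) (adjusted p in DESeq2 0.142), and was called without R26-WT replicate 1 (0.000479), where all R26-WT libraries are at 0. Havcr2 was named after its values were seen. R26-TIR1(F74G) replicate 9, the library highest in Tox2, was also the highest in Tigit (337) and Id2 (7962). Of 11 T lineage factors, all tested, none was called by DESeq2 or edgeR and 1 had an unadjusted DESeq2 p under 0.05. It was Runx3, at 1659 ± 25.0 and 1983 ± 178 (a log2 difference of 0.26, SE 0.10, adjusted p in DESeq2 0.248), with no overlap between groups, followed by Gata3 (7183 ± 511 and 6604 ± 805) and Tcf3 (8375 ± 1148 and 9030 ± 996). Over these 9 lists, DESeq2 called 4 of 108 distinct tested genes (3.7%), against 1.74% of all tested genes.

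Genes of dividing cells differed between the groups beside Tcf7 and Tox2. Of 10 proliferation genes, all tested, DESeq2 called 7 higher and none lower, edgeR called 4, and the median log2 fold change was 1.24. Over all tested genes, DESeq2 called 1.40% higher and edgeR called 0.373% in either direction. Pcna was the only gene of the list with a log2 fold change below 0 (−0.14). Rrm2, a subunit of ribonucleotide reductase, rose from a normalized count of 629 ± 116 to 1701 ± 423 (1.43, SE 0.21, adjusted p in DESeq2 3.39e-09, edgeR 0.0114), and Cdk1 rose from 110 ± 26.6 to 289 ± 53.2 (1.39, SE 0.21, adjusted p in DESeq2 1.12e-08, edgeR 0.0135). Birc5, Mcm5, Top2a and Mki67 were also called, at log2 fold changes of 1.56, 0.66, 1.61 and 1.70. With R26-WT replicates 3 and 4 both left out, Rrm2 (1.23), Cdk1 (1.27) and Birc5 (1.29) were still called, and Mcm5, Top2a, Mki67 and Tyms were not. The summed normalized counts of the 10 genes were 9608 to 13692 in R26-WT and 15079 to 22803 in R26-TIR1(F74G). Their part in the differences of Tcf7 and Tox2 was not tested.

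**Figure D5:**
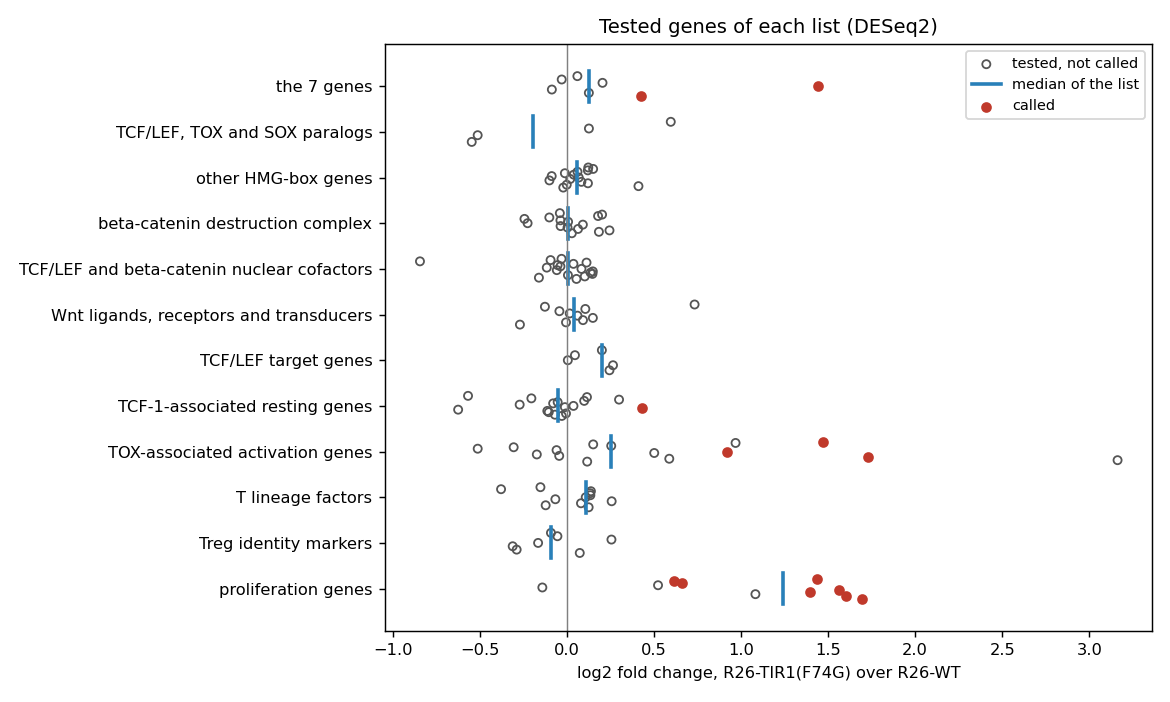
Log2 fold change of R26-TIR1(F74G) over R26-WT for each tested gene of the 7 genes and 11 lists (red: called by DESeq2, adjusted p under 0.05; open: not called; blue bar: median of the list). The 4 Wnt and beta-catenin lists hold no called gene and have medians of 0.0065 to 0.20, and the proliferation genes have a median of 1.24.

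As a description of likeness, the 10016 named genes with a mean normalized count of at least 100 were ranked by Pearson correlation with each of 4 genes over the 10 libraries, which share depth and the length trend, on log2(normalized count + 1). The genes most like Tcf7 were Sema4a (r = 0.959), Spsb1 (0.953) and Nsg2 (0.953). Sema4a and Spsb1 were themselves called by DESeq2, at log2 fold changes of 0.61 and 0.44. The genes most like Lef1 were Igfbp4 (0.938), Chaf1b (0.912) and Fcgrt (0.907), those most like Tox were Trim59 (0.896), Rnf2 (0.879) and Nr4a3 (0.873), and those most like Sox4 were Acads (0.848), Rab21 (0.837) and Traj8 (0.828).

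The promoters of the 2 genes called by DESeq2 are shown because both genes were higher in R26-TIR1(F74G) and Foxp3 is a forkhead factor. Of the 7 genes 6 had an entry in the RefSeq promoter table (GRCm38.p6, 250 bases before to 50 after a start), 15 windows in all. They were searched on both strands for the TCF/LEF letters (CTTTGAA or CTTTGAT or CTTTGTA or CTTTGTT) and the forkhead letters (TGTTTAC or TGTTTGC). Of all 32851 windows in the table, 16.9% held a TCF/LEF match and 8.48% a forkhead match. Tcf7 had 1 forkhead match, which begins 1 base after the start in 1 of its 2 windows, and no TCF/LEF match. Tox2 had a TCF/LEF match 140 bases before the start in 1 of its 5 windows and, at the same place, in another that is shifted by 1 base, and no forkhead match. The windows with a match are printed to 20 bases after the start, with the matches in capitals. Their letters occur once in GRCm39, at chr11:52173403-52173672 on the minus strand for Tcf7 and at chr2:163067123-163067392 on the plus strand for Tox2.
Tcf7: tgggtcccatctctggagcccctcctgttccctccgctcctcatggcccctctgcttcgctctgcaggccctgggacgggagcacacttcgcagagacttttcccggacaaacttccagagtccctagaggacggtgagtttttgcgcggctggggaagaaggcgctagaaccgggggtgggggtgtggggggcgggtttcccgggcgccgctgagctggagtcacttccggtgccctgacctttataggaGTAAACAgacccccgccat
Tox2: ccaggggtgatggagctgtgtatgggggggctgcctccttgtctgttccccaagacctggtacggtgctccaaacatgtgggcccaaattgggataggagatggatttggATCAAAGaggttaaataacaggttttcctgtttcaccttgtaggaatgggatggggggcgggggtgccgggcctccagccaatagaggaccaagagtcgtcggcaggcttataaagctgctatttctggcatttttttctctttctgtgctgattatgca

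The capitals are the reverse complement of the letters searched in both windows. Lef1 had a forkhead match in 2 overlapping windows, 213 and 239 bases before their starts, and a TCF/LEF match 147 bases before the start in 1 of its 4 windows. Tox4, Sox4 and Ctnnb1 had neither in 1, 1 and 2 windows, and Tox was the gene with no entry.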

How the data were processed

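The deposited files held raw read-pair counts per gene name, 1 library per file, which the authors made with featureCounts 2.1.1 (GENCODE M30, GRCm39, unstranded, primary alignments, mapping quality of at least 30) and did not normalize. The submitters' processing notes name Bowtie2 and the study's methods STAR, so the aligner is uncertain. The labels describe a PCR-amplified cDNA protocol with no molecular identifiers named, so read pairs are not independent molecules. Libraries held 24158699 to 54795718 counted pairs.

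Counts were tested in R 4.3.3 with DESeq2 1.42.0 (two-sided Wald test on genotype alone, with Benjamini-Hochberg adjustment over the 16363 genes whose mean count reached 10), the tool and filter of the study's methods. The edgeR 4.0.16 quasi-likelihood test was run beside it. DESeq2 gave no adjusted p for 6 genes. To normalize, counts were divided by the size factors of DESeq2. RPKM used the union exon length of the count files and the total of counted pairs. Ratios were tested by exact permutation of the group labels (210 possible assignments). The fits were first tested on simulated counts. Alternatives used limma 3.58.1 (voom with quality weights), TMM scaling, no filter or a mean count of at least 50, removal of each library's trend on exon length, 1 surrogate variable (sva 3.50.0), and fits without each library.

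The genes, the lists and the tests were chosen with earlier results of these data known. Besides the 7 genes and Foxp3, each list's 3 tested genes with the smallest unadjusted p were named, with its called genes up to 6. For Tcf7, Lef1, Tox and Sox4 the 3 most correlated genes were named. The labels do not say whether libraries came from separate mice, so p-values measure only the spread between these libraries. Single values of some list genes are not reported here.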

Additional observations from a re-analysis of the deposited data

Results flagged for a closer look

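The genes given with counts, the list genes called under any setting, and both ratios were examined in each group for a library far from the others by Dixon's criterion, 140 groups of values in all. In 16 groups 1 library stood apart, where chance gives about 1 in 20 groups, or 7, if values are normally distributed and groups independent. The groups here share libraries and hold untransformed counts, so 7 is only a rough guide.

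Tox2 reached a normalized count of 640 in replicate 9 of R26-TIR1(F74G), where the group otherwise spanned 150 to 323. The same library stood apart in Tigit, with 337 against 71.4 to 142, in Id2, with 7962 against 4337 to 5398, in Il4 (366 against 75.9 to 144), Icos (9657 against 4076 to 5051) and Pdcd1 (3881 against 2519 to 2779) of the follicular list given below, and at the low end in Ssrp1, with 10779 against 12923 to 13932. The other tested genes of the follicular list did not stand apart in it. Of those, Cxcr5, Sh2d1a and Cd200 were highest of the group there, and Bcl6 was lowest, at 426 normalized counts against 435 to 686. In R26-TIR1(F74G) replicate 6, Csnk1e had 1137 normalized counts, against 980 to 1018, and Cd44 had 2132, against 2677 to 2934. R26-TIR1(F74G) replicate 5 had 48.0 for Ctbp2, against 23.4 to 32.4. In replicate 7 of that group Foxp3 had 16059 normalized counts, against 6778 to 9851, and Itgam, a myeloid marker, had 33.3, against 4.33 to 14.2. In R26-WT replicate 2, Jup had 109 normalized counts, against 37.4 to 45.4, and Arpp21 had 47.2, against 31.8 to 33.8. Myc had 22470 in R26-WT replicate 3, against 19858 to 20120, and Havcr2 had 8.76 in R26-WT replicate 1, with 0 in the other R26-WT libraries.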

How the results depend on the processing

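No paired analysis was possible because R26-WT carries replicate numbers 1 to 4 and R26-TIR1(F74G) 5 to 10, with none in common. Scaling by TMM, either count filter and removal of the length trend changed the call of none of the 7 genes. DESeq2 called 284 genes, 2 of the 7 and 4 list genes. The edgeR test called 61, 0 and 2, limma voom 80, 0 and 2, the fit with 1 surrogate variable 743, 1 and 9, and the fit without R26-WT replicates 3 and 4, chosen after the data were seen, 134, 0 and 2. Tcf7 was not called by edgeR (log2 fold change 0.42), voom (0.46) or that last fit (0.29), and Tox2 by none of edgeR (1.45), voom (1.51), the surrogate variable (1.48) or that last fit (0.89). Tcf7 was called in the fit with 1 surrogate variable, which is estimated from the same counts (0.39, adjusted p in DESeq2 6.74e-07). The surrogate variable fit lost Tigit (1.72) and also called Cxcr5, Foxo1, Hmgb2, Id3 (−0.46), Lag3 (0.58) and Runx3, the proliferation genes Ccnb1 and Mcm2, and the Treg genes Cd4 (0.20) and Il2ra (−0.40). In the fit without R26-WT replicates 3 and 4 Ctnnb1 was at −0.24, and the differences between groups in the log2 ratios were 0.092 (Tcf7 to Lef1) and −0.87 (Tox to Tox2). With the length trend removed from the ratios, also chosen after the data were seen, that of Tcf7 to Lef1 was 0.37 and no longer passed.

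In the 10 fits without 1 library, DESeq2 called 187 to 346 genes, 0 to 2 of the 7 and 3 to 6 list genes. Log2 fold changes were 0.36 to 0.48 for Tcf7, called in 3 fits, and 1.12 to 1.72 for Tox2, called in 6. Ctnnb1 ran from −0.057 to 0.21, below 0 without R26-WT replicate 3 (−0.057) or 4 (−0.039), and Sox4 from −0.077 to 0.029, above 0 without R26-TIR1(F74G) replicate 8 or 10 (0.029 each), while Lef1, Tox and Tox4 kept their sign. The difference between groups in the log2 ratio of Tcf7 to Lef1 ran from 0.20 to 0.38 and in that of Tox to Tox2 from −1.79 to −1.30. The cause of the lost calls was not tested. Read pairs were few for Tox2, 68 to 592 in a library.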

Other observations

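Because Tox2 is known from follicular helper T cells, 9 genes of follicular T cells were looked at after the values of Tox2 were seen. Of these, 8 were tested and 1 was called higher by DESeq2 and by edgeR (over all tested genes, DESeq2 called 1.74% and edgeR 0.373% in either direction), with none called lower and a median log2 fold change of 0.08. The called gene was Il4, a type 2 cytokine gene, with 16.7, 9.84, 7.32 and 10.1 normalized counts in R26-WT and 75.9, 114, 144, 106, 366 and 89.4 in R26-TIR1(F74G), without overlap (a log2 difference of 3.76, SE 0.46, or 13.5-fold, adjusted p in DESeq2 6.35e-13, edgeR 0.0109). Without R26-TIR1(F74G) replicate 9, its highest library, the log2 difference was 3.26. Il21, the follicular helper cytokine, had 9.84 to 30.3 normalized counts in R26-WT and 11.1 to 72.5 in R26-TIR1(F74G) (a log2 difference of 1.08, SE 0.45, adjusted p in DESeq2 0.375, edgeR 0.679), and it was called without R26-TIR1(F74G) replicate 7 (1.28, adjusted p in DESeq2 0.0188). Bcl6, the defining factor of follicular cells, had 342 to 761 and 426 to 686 (−0.05, SE 0.24, adjusted p in DESeq2 0.99996), and Pdcd1 had 2398 to 2874 and 2519 to 3881 (0.12, SE 0.14, adjusted p in DESeq2 0.99996). Icos, a costimulatory receptor, had 3827 to 4617 in R26-WT and 4076 to 5051 in R26-TIR1(F74G), apart from replicate 9 with 9657 (0.35, SE 0.23, adjusted p in DESeq2 0.99996). Cxcr5, given above with the resting genes, is also on this list, and its direction is opposite to that of Tox2.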
